A study of Mus musculus with 4 samples.

Results

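Low oxygen raises more than the sugar-burning genes. A list of 36 mouse genes that hypoxia is known to induce outside glycolysis, grouped by the roles of their products, was read in Hepa1-6, an established mouse hepatocellular carcinoma line. All 36 were found by symbol among the 54838 genes of the files. The list holds 7 secreted or surface ligands, 5 genes of mitochondria, 9 of chromatin and transcription, 5 of growth control and protein turnover, 3 of oxidative folding and matrix cross-linking, 2 carbonic anhydrases, 2 lipid droplet genes and 3 others. RNA was sequenced from 4 libraries: 2 labelled NC, with the wild type Acvr2a gene, and 2 labelled KO, with Acvr2a knocked out. Acvr2a encodes an activin receptor. The KO cells are called subclones, without a statement of whether both libraries come from the same subclone. The labels name no oxygen level, treatment, knockout method or separate cultures, so p-values measure only the spread between these libraries, which may be technical.

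In the textbook pathway, prolyl hydroxylases of the EGLN family mark HIF alpha subunits when oxygen is present, and the VHL complex then has them destroyed. When oxygen falls, HIF1A or EPAS1 (HIF2A) joins ARNT and binds short DNA letters with the core ACGTG or GCGTG, the hypoxia response element. The genes induced in this way cover blood vessel growth, mitochondrial clearance, histone demethylation and acid handling as well as glycolysis, and the same pathway is often active in liver tumours. Several of the 36 genes also answer to other inputs, such as amino acid stress through ATF4 or fatty acids through PPARs.

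Library totals lay between 11597923 and 13910582 expected counts, so a gene with no read has a level below 0.216 to 0.259 CPM (the level of 3 counts), for counting error only. CPM here means counts scaled to a common library size with TMM factors and is used to compare libraries. TPM, the authors' length-scaled unit, is used to compare genes. Acvr2a had 81 and 108 counts in NC against 75 and 97 in KO (log2 fold change -0.21, SE 0.20, adjusted p = 0.433), so its gene total did not separate the groups, and the directions below follow the labels. Of the hepatocyte markers, Afp, Alb, Trf, Apoe, Hnf4a and Foxa2 were present while Ttr and Serpina1a had at most 5 counts in a library. The 10 markers summed to 4016 to 4321 CPM in NC and 3142 to 3165 in KO, but not in 1 direction: Apoe (2486 and 2275 CPM in NC against 1328 and 1167 in KO), Afp, Hnf4a and Foxa2 were lower in both KO libraries. Alb (840 and 758 against 965 and 1151 CPM) and Trf were higher in both. Endothelial markers summed to at most 1.06 CPM, with Cdh5, Tek and Erg at 0, and leukocyte markers to at most 3.87, with Cd3e at 0. Erythroid markers summed to 17.9 to 19.3 CPM in NC and 17.0 in both KO libraries, with Alas2 at 0. Fibroblast markers summed to 1481 to 1490 CPM in NC and 1630 to 1709 in KO, mostly Dcn, with Lum at 0. Pdgfra, with 140 and 157 counts in NC against 290 and 329 in KO, and Col1a1, with 6 and 5 against 38 and 41, were higher in both KO libraries. Their companions on the list were nearly absent: Col1a2 had 0 and 0 counts in NC against 0 and 1 in KO, and Pdgfrb 0 and 1 against 2 and 1. The part of these marker differences in the results below was not tested.

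Most of the hypoxia genes that the cells expressed were higher in the KO libraries. Of the 29 members tested, 22 were higher at an adjusted p under 0.05, against 19.7% of all genes tested. Stc1 was the member called lower, against 18.2% of all genes, and Plin2, Angptl4, Zfp395, Ccng2, Loxl2 and Ppfia4 did not pass the test. The other 7 members, Car9, Car12, Adm, Stc2, Lox, Tmem45a and Bhlhe41, fell under the filter on low counts and have no test. DESeq2 called 18 members higher, beside 11.3% of all genes (and 11.5% lower), edgeR without the filter 19, beside 11.6% (and 11.4% lower), and limma on filtered log2(TPM + 1) 15, beside 9.12% (and 4.07% lower). On log2(TPM + 1), filtered, the calls of Stc1, Ankzf1, Ddit4, Efna1, Bnip3l, Higd1a, Bhlhe40 and Cited2 were lost, with adjusted p from 0.0711 to 0.30. The higher calls of edgeR's filtered test are thus 61.1% of the whole list and 75.9% of the tested members. Both KO libraries lay above both NC libraries for 27 tested members, where 34.8% of all tested genes did so, and below both for Stc1, as for 34.7% of all genes. Ppfia4 passed the filter through its KO libraries only.

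The rises were mostly moderate. The median log2 fold change of the tested members was 0.52, with quartiles 0.26 and 0.85, beside -0.0037 for all 12510 genes tested. Efna3, Ero1l and Ndrg1 were the 3 members called with more than a 2-fold rise, a size reached by 5.72% of all genes. In these bulk libraries, fewer cells with a transcript and less transcript in each cell cannot be told apart.

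**Figure D1:**
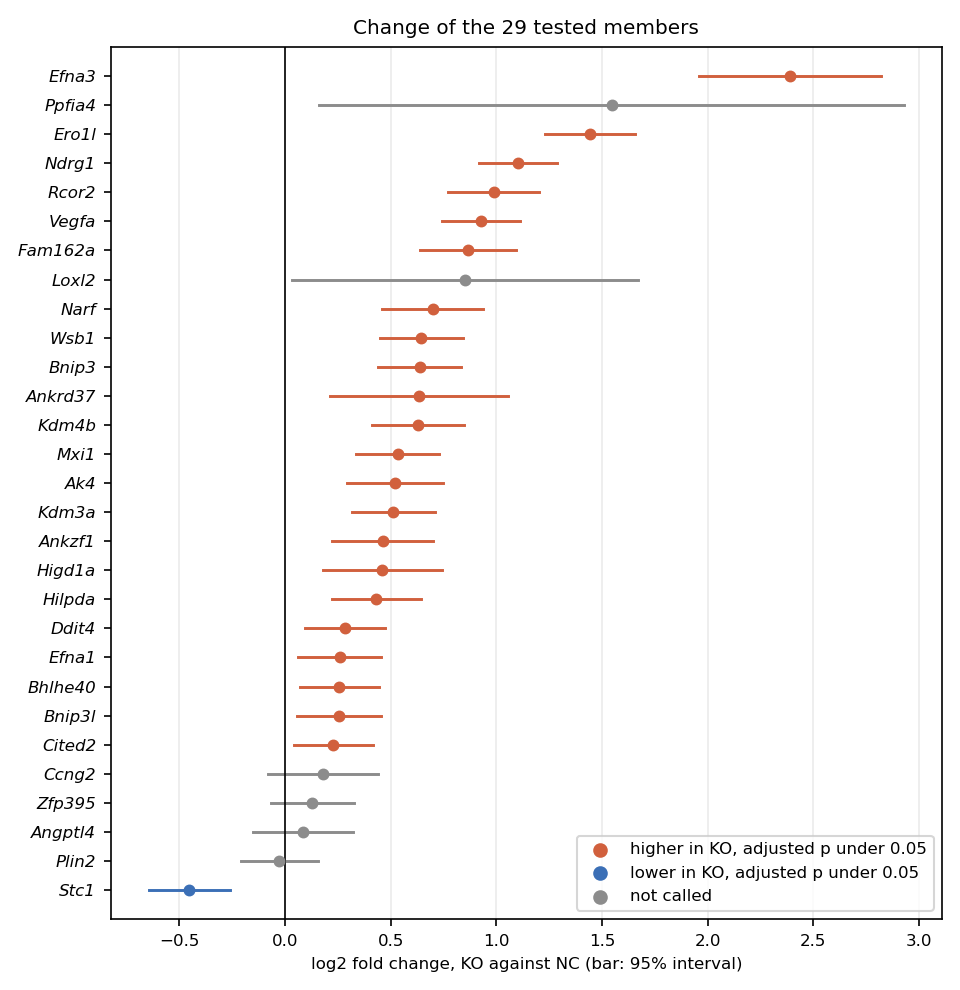
Log2 fold change of each tested member, KO against NC (points, with 95% intervals as bars; 2 libraries in each group); colour gives the call at an adjusted p of 0.05. Of the 29 members, 22 were called higher, Stc1 alone lower and 6 were not called.

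**Figure D2:**
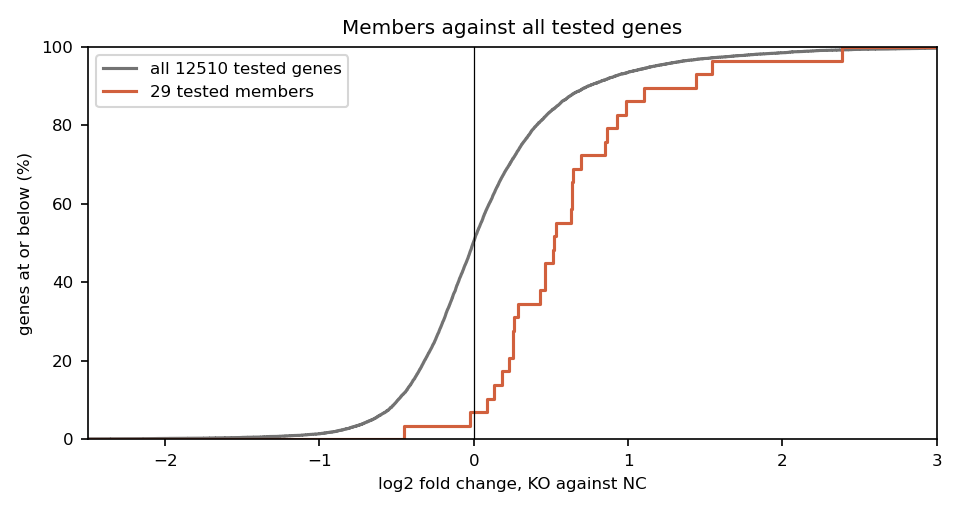
Share of genes (y axis, percent) at or below each log2 fold change (x axis, KO against NC), for the 29 tested members and for all 12510 tested genes. The members' curve crosses the middle at 0.52 and that of all genes at -0.0037.

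Before any comparison, the members spanned the whole range of expression. In NC, 7 members exceeded 100 TPM and 9 lay below 1 TPM. Cited2, a brake on HIF that competes for its coactivator, was the member with the highest TPM in both groups (253 ± 13.8 in NC and 307 ± 8.63 in KO, SD, n = 2 each). Next in NC came Plin2 at 253 ± 7.17, Bnip3 at 139 ± 2.65 and Vegfa at 125 ± 14.5 TPM, and the first 2 of these 4 overlapped in their values. In KO, Vegfa moved from place 4 to place 2 with 259 ± 2.56 TPM and Plin2 from place 2 to place 4 with 241 ± 1.43. Bnip3, at 242 ± 1.14, could not be separated from Plin2 in KO by the spread of the libraries.

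Silent members were those with a mean TPM under 0.5 over the 4 libraries, and there were 8. Adm (adrenomedullin, a vessel-dilating peptide), Stc2 (a secreted glycoprotein), Lox (a collagen cross-linking enzyme) and Tmem45a (a membrane protein) had 0 counts in every library. Car12, a membrane carbonic anhydrase, had 1 count, in KO 1. Bhlhe41, a transcriptional repressor, had 3 and 6 counts in NC against 4 and 5 in KO. Loxl2 and Ppfia4 were also under 0.5 TPM but had enough counts to be tested. Cutoffs of 0.1 and 1 TPM gave 6 and 9 silent members.

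**Figure D3:**
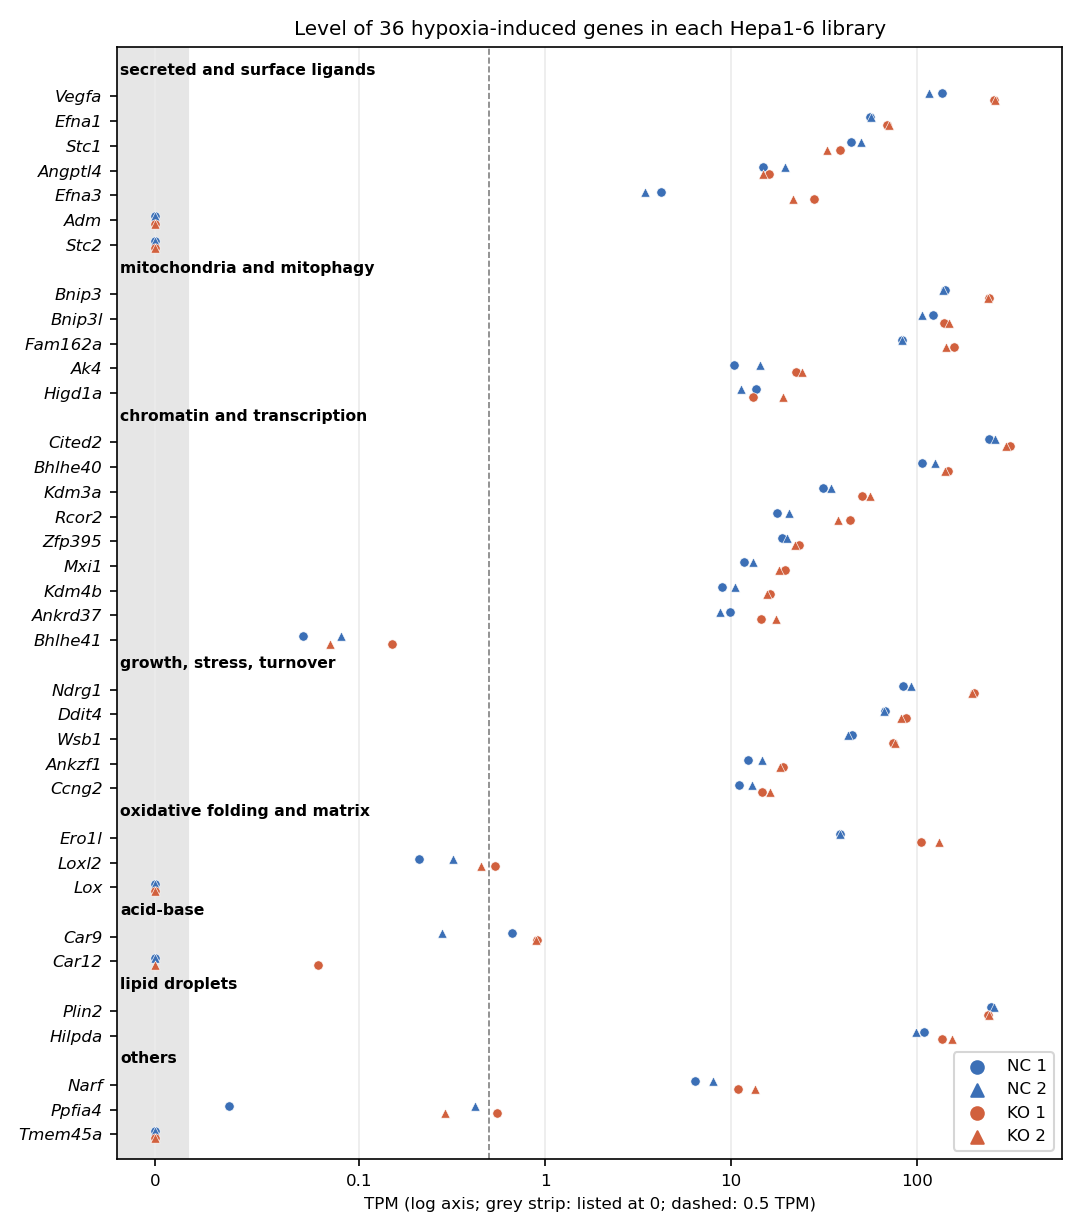
TPM of the 36 members in each of the 4 libraries (log axis; the grey strip holds values listed at 0 and the dashed line marks 0.5 TPM), grouped by role. The levels run from 4 genes at 0 in every library to Cited2 above 240 TPM in all 4.

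The letters of the hypoxia response element were common in the members' promoters. RefSeq promoter windows of 250 bases before and 50 after a transcription start (GRCm38.p6) were found for 27 members, in 40 windows. Both strands were searched for ACGTG, for GCGTG, and for the E-box CACGTG, which holds ACGTG on each strand. A gene was counted where any of its windows held the letters, so a gene with more windows has more chances to match. The 27 members had 40 windows and the 27025 genes 32851, so the members had more windows per gene. ACGTG was in 18 of the 27 (66.7%), beside 21.8% of 27025 genes in the table and 29.4% of the 9382 tested genes with a window. GCGTG was in 22 (81.5%, beside 35.2% and 56.8%), while the E-box was in 8 (29.6%, beside 8.09% and 11.9%). Either core was in 26 members (96.3%, beside 46.7% and 68.1%), Car12 being the exception. By call, ACGTG was in 14 of the 18 windowed members called higher and in 4 of the other 9, and GCGTG in 15 and in 7. Of the other 9, Ccng2, Plin2 and Ppfia4 were tested and not called. Car9, Car12, Adm, Stc2, Tmem45a and Bhlhe41 were under the filter and have no test. The 4 with ACGTG were Plin2, Ppfia4, Car9 and Bhlhe41. With either core in nearly every member, that measure could not set the groups apart, and the difference for ACGTG was not tested. A match is a description of the letters, not of binding.

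The windows below show the letters in 5 members with large, moderate or small differences, each as 250 bases before the start site and the first 10 bases from it, 5′ to 3′ on the gene's strand, with ACGTG or GCGTG read on either strand in capitals. Efna3 (chr3:89322930-89323189, minus strand) and Ppfia4 (chr1:134344707-134344966, minus strand) had the largest log2 fold changes of the tested members with a window, and Plin2 (chr4:86670050-86670309, minus strand) the smallest absolute one. Ppfia4 was not called and passed the filter through its KO libraries only. Its place here rests on 1 and 8 counts in NC against 17 and 11 in KO. Ero1l (chr14:45318563-45318822, minus strand), the member with the lowest p, and Bnip3 (chr7:138909497-138909756, minus strand), a classical HIF target, were chosen after their values were seen. The Ppfia4 window belongs to a RefSeq start that lies upstream of the GENCODE gene model. The second Ppfia4 window, at the start of that model, held neither core.
Efna3: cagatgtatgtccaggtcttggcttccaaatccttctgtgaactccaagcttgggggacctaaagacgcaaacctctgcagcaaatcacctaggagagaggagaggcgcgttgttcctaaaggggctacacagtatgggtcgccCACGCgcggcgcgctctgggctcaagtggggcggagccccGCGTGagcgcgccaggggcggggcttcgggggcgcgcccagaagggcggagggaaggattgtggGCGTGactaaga
Ppfia4: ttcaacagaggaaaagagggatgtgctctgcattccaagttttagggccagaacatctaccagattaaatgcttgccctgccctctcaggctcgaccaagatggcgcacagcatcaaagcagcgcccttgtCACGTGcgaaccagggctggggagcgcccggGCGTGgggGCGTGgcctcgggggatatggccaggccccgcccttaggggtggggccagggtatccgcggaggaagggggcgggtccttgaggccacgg
Ero1l: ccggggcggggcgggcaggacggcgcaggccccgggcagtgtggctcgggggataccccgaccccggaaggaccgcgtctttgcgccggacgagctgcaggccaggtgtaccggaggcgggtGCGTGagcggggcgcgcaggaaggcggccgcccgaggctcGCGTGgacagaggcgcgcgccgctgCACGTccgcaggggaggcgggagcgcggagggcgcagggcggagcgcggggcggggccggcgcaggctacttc
Bnip3: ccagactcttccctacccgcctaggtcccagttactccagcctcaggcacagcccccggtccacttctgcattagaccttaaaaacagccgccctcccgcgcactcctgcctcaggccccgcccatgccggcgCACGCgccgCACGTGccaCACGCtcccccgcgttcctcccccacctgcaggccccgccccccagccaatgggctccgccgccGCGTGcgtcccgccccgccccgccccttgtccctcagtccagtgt
Plin2: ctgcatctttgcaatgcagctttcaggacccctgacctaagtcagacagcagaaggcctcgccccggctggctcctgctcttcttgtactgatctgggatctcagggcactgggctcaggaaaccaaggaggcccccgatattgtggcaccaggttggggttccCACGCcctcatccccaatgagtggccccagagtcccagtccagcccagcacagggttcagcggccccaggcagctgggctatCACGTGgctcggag
In Bnip3 a CACGTG stood between 2 GCGTG cores on the opposite strand, within 23 bases in all. Ppfia4 held a CACGTG followed by 2 GCGTG cores, and Ero1l held 2 GCGTG and 1 ACGTG. Efna3 held 3 GCGTG and no ACGTG in this window. Plin2, whose level did not pass the test, also held a GCGTG and, across the start site, a CACGTG.

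Among the 7 ligands, Vegfa, Efna3 and Efna1 rose, Stc1 fell, Angptl4 was not called and Adm and Stc2 were silent. Efna3 (chr3:89313899-89322965, GRCm38, protein coding) encodes ephrin-A3, a surface ligand of EPH receptors. It had 2.81 and 3.03 CPM in NC against 14.9 and 15.9 CPM in KO. Both KO libraries stood far above both NC libraries, and the rise was 5.24-fold (log2 2.39, SE 0.21, adjusted p = 4.27e-10). In raw counts these were 32 and 42 in NC against 196 and 215 in KO, and the length-scaled level went from 3.81 ± 0.537 to 24.7 ± 4.63 TPM (SD, n = 2 each). Gm15998, an antisense gene over Efna3's exons, had 32 and 42 counts in NC, as many as Efna3 itself, and 32 and 28 in KO (log2 fold change -0.38, adjusted p = 0.371). Whether reads were counted by strand is not given in the sources used here, so how reads were shared between them is not known.

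Vegfa (chr17:46016993-46032369), the main growth factor of blood vessels, was at 158 and 149 CPM in NC against 285 and 299 CPM in KO. The groups were well apart, and Vegfa rose 1.90-fold (0.93 on a log2 scale, SE 0.09, adjusted p = 1.03e-08). Efna1, encoding ephrin-A1, rose by 0.26 in log2 units (SE 0.10, adjusted p = 0.0338), but the call was lost without NC 1 (0.28, adjusted p = 0.0920), NC 2 (0.23, 0.183) or KO 2 (0.21, 0.184), with DESeq2 (adjusted p = 0.131) and without the filter (0.0709). Stc1 (chr14:69029238-69041804), encoding stanniocalcin-1, a secreted hormone of calcium and phosphate handling, was at 163 and 177 CPM in NC against 131 and 117 in KO. Both KO libraries were below both NC libraries, and Stc1 fell by 0.45 in log2 units (SE 0.09, adjusted p = 0.000436). Angptl4, a secreted inhibitor of lipoprotein lipase, was at 29.3 and 28.5 CPM in NC against 31.9 and 29.4 in KO. Its difference was 0.084 (95% interval -0.15 to 0.32, adjusted p = 0.60), and it turned to -0.13 in log2(TPM + 1).

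All 5 mitochondrial members rose, by 0.26 to 0.87 on the log2 scale. Fam162a, a mitochondrial protein linked to hypoxic cell death, was at 28.1 and 24.3 CPM in NC against 48.1 and 47.1 in KO. It had the largest rise of the 5 (0.87, SE 0.11, adjusted p = 8.41e-07), with the KO libraries close to each other and above both NC libraries. Wdr5b, which overlaps Fam162a's exons on the other strand, had 21 and 25 counts in NC against 13 and 6 in KO. Bnip3 (chr7:138890836-138909519), a receptor that marks mitochondria for autophagy, was at 178 and 165 CPM in NC against 244 and 288 in KO. It rose by 0.64 (SE 0.10, adjusted p = 9.15e-06), without overlap of the groups.

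Bnip3l, the related mitophagy receptor also called Nix, rose by 0.26 (SE 0.10, adjusted p = 0.0394), and this call was lost without NC 2 (0.17, adjusted p = 0.324) or KO 2 (0.15, 0.298), with DESeq2 (adjusted p = 0.0941) and without the filter (0.0588). Higd1a, which binds the respiratory chain, rose by 0.46 (SE 0.14, adjusted p = 0.00922), with a loss of the call without KO 2 (0.31, adjusted p = 0.155) and with DESeq2 (adjusted p = 0.0970). Ak4, an adenylate kinase of the mitochondrial matrix, rose by 0.52 (SE 0.11, adjusted p = 0.000513) and by 0.35 without NC 1 (adjusted p = 0.0387).

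Related members were also set against each other within a library, as the log2 ratio of their counts. Efna3 to Efna1, neighbours on chromosome 3, stood at -4.54 and -4.37 in NC and -2.31 in both KO libraries, a difference of 2.14. Bnip3 to Bnip3l stood at 0.43 and 0.49 in NC against 0.82 and 0.86 in KO, a difference of 0.38. In neither pair did the groups overlap. Kdm3a to Kdm4b, both histone demethylases, overlapped, with 1.97 and 1.75 in NC against 1.58 and 1.88 in KO. With 2 libraries a group, an exact permutation test cannot go below 0.333, so these ratios are given without a test.

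**Figure D4:**
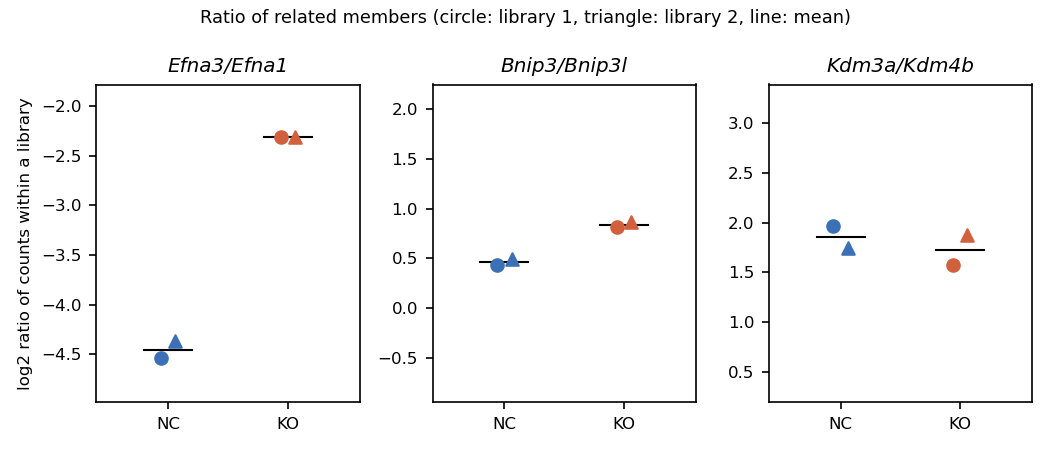
Log2 ratio of the counts of 2 related members within each library (y axis), for NC and KO (circle, library 1; triangle, library 2; line, group mean); each y axis spans the same range. The ratio moved by 2.14 for Efna3 to Efna1 and by 0.38 for Bnip3 to Bnip3l, and overlapped for Kdm3a to Kdm4b.

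Of the 9 genes of chromatin and transcription, 7 rose, Zfp395 was not called and Bhlhe41 was silent. Rcor2 (chr19:7267325-7275225), a corepressor that works with the demethylase LSD1, was at 30.9 and 30.0 CPM in NC against 63.8 and 57.0 in KO. It rose by 0.99 (SE 0.11, adjusted p = 3.94e-08), the largest change among the 9. The histone demethylases Kdm3a and Kdm4b, which need oxygen for their own reaction, rose too. Kdm3a was at 123 and 122 CPM in NC against 161 and 189 in KO (0.51, SE 0.10, adjusted p = 0.000139). Kdm4b was at 31.6 and 36.4 CPM in NC against 54.0 and 51.3 in KO (0.63, SE 0.11, adjusted p = 4.05e-05). Neither gene's groups overlapped. Mxi1, a MYC antagonist, was at 54.1 and 57.4 CPM in NC against 82.3 and 79.1 in KO, a rise of 0.53 (SE 0.10, adjusted p = 8.47e-05) with the groups apart.

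The remaining rises in the transcription group were small or less steady. Ankrd37, an ankyrin repeat protein, rose by 0.63 (SE 0.20, adjusted p = 0.0154), with a loss of the call without NC 2 (0.50, adjusted p = 0.137) or KO 2 (0.58, 0.0855) and with DESeq2 (adjusted p = 0.168). Its exons overlap Lrp2bp on the other strand, which had 8 and 18 counts in NC against 44 and 70 in KO (2.05, adjusted p = 9.14e-05), beside 68 and 69, and 108 and 118 for Ankrd37. They also overlap the more abundant Ufsp2, with 460 and 636 counts in NC against 741 and 739 in KO (0.36, adjusted p = 0.00674). Bhlhe40, a repressor of the circadian network, rose by 0.26 (SE 0.09, adjusted p = 0.0279), without the call when NC 1 (0.18, adjusted p = 0.296) or KO 2 (0.25, 0.0569) was left out. Cited2 rose by 0.23 (SE 0.09, adjusted p = 0.0476) and lost the call without NC 1 (0.20, adjusted p = 0.219), NC 2 (0.25, 0.124), KO 1 (0.23, 0.0799) or KO 2 (0.23, 0.0986) and without the filter (adjusted p = 0.0842). Zfp395, a zinc finger protein, was at 61.2 and 66.8 CPM in NC against 71.0 and 69.1 in KO, a difference of 0.13 (95% interval -0.068 to 0.33, adjusted p = 0.304).

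In the group of growth control and protein turnover, Ndrg1, Wsb1, Ankzf1 and Ddit4 rose and Ccng2 was not called. Ndrg1 (chr15:66929318-66969640), a stress-responsive growth inhibitor widely used as a hypoxia marker, was at 205 and 215 CPM in NC against 448 and 455 in KO. The 2 libraries of each group lay close together and the groups far apart, a 2.15-fold rise (log2 fold change 1.10, SE 0.09, adjusted p = 4.27e-10). Gm17035, on the other strand over Ndrg1's exons, had 61 and 20 counts in NC against 118 and 103 in KO, against 2332 or more for Ndrg1. Wsb1, the substrate receptor of a ubiquitin ligase, was at 72.9 and 63.7 CPM in NC against 104 and 109 in KO, a rise of 0.65 (SE 0.10, adjusted p = 8.03e-06) with no overlap.

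Ankzf1, which releases nascent chains from stalled ribosomes, rose by 0.46 (SE 0.12, adjusted p = 0.00257). On the other strand its exons overlap Atg9a, which had 1309 and 1584 counts in NC against 1571 and 1599 in KO, and Glb1l, and neither of these passed the test. Ddit4, also called REDD1, an inhibitor of mTORC1, rose by 0.28 (SE 0.09, adjusted p = 0.0164), and the call was lost without NC 2 (0.23, adjusted p = 0.161). Ccng2, an unconventional cyclin tied to growth arrest, was at 23.7 and 22.4 CPM in NC against 24.3 and 27.9 in KO. Both KO values were above both NC values, but the difference of 0.18 did not pass the test (95% interval -0.080 to 0.44, adjusted p = 0.276).

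Of the 3 genes of oxidative folding and matrix cross-linking, Ero1l was among the most changed members and both lysyl oxidases were near silent. Ero1l (chr14:45283087-45318771) encodes the oxidase that feeds disulfide bond formation in the endoplasmic reticulum. It was at 132 and 137 CPM in NC against 318 and 414 in KO. The KO libraries differed from each other by more than the NC libraries did, yet both were more than 2-fold above them. The fold change was 2.72 (log2 1.44, SE 0.10, adjusted p = 4.25e-11), the lowest p of the 29. Loxl2, a lysyl oxidase relative, had 11 and 20 counts in NC against 31 and 28 in KO, a difference of 0.85 that did not pass the test (SE 0.40, adjusted p = 0.0890). Gm27177, on the other strand over its exons, had 1 and 5 counts in NC against 5 and 14 in KO.

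Of the 2 carbonic anhydrases that hydrate CO2 at the cell surface, Car9, among the most used hypoxia markers in human tumours, was barely detected. It had 6 and 5 counts in NC against 8 and 16 in KO, or 0.66, 0.28, 0.90 and 0.89 TPM. Gm12454, on the other strand over its exons, had as few reads, with 2 and 3 in NC against 17 and 8 in KO. Without the filter its log2 fold change was 1.0 with an SE of 0.66 (adjusted p = 0.306), so a change in Car9 was not detectable at this depth. Without the filter Bhlhe41 differed by -0.084 (adjusted p = 0.979).

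Of the 2 lipid droplet genes, Hilpda rose and Plin2 was not called; the difference between them was not tested. Plin2 (chr4:86648386-86670060), which coats lipid droplets, was at 299 and 286 CPM in NC against 284 and 290 in KO. The groups overlapped, and the difference of -0.027 has a 95% interval from -0.21 to 0.16 (adjusted p = 0.844). Hilpda, which inhibits the lipase ATGL on droplets, rose by 0.43 (SE 0.10, adjusted p = 0.00155), from 104 ± 7.57 to 145 ± 12.5 TPM (SD, n = 2 each). Plin2, Angptl4 and Hilpda are also PPAR targets, and of 18 further PPAR targets 12 were tested. Of these, 4 were higher and 1 was lower, beside 19.7% and 18.2% of all tested genes, and 7 were not called. Their median was 0.20. Pdk4 (0.85) and Acot1 (1.0) were among the higher ones. Both had few counts: Pdk4 had 33 and 51 in NC against 80 and 80 in KO, and Acot1 27 and 28 against 55 and 62. The lower one was Acadl (-0.29, adjusted p = 0.0137).

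Of the last 3 members, Narf, a nuclear protein that binds prelamin A, was at 24.98 and 27.9 CPM in NC against 39.1 and 46.8 in KO. It rose by 0.70 (SE 0.12, adjusted p = 3.62e-05), with both KO libraries above both NC libraries. Ppfia4, liprin-alpha-4, a scaffold protein, had 1 and 8 counts in NC against 17 and 11 in KO. The difference of 1.54 (SE 0.68, adjusted p = 0.0541) missed the threshold and rests on few reads: it was 3.44 without NC 2 (adjusted p = 0.0192) and 0.85 without NC 1 (0.427). Ppfia4 also passed with library totals only (1.57, adjusted p = 0.0471), with limma-voom (1.83, 0.0303) and in the robust quasi-likelihood fit (adjusted p = 0.0404).

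The abundance-weighted transcript length of a gene moves when its mix of transcripts moves. A shift was named where the groups did not overlap and the means differed by more than 5% and by more than the range within each group. This held for 4 of the 29 tested members (13.8%), near the 12.6% of all tested genes. Ak4 had the largest shift: 3956 and 3907 bases in NC against 3261 and 3070 in KO, a change of -21.6%. GENCODE M21 lists 7 Ak4 transcripts, 3 of 4175 to 4360 bases and 4 of 458 to 791 bases. The annotation behind the weighted lengths is not given and need not be this release. Mxi1, at 5119 to 5131 bases, exceeded its longest M21 transcript of 5036 bases. The log2 ratio of Ak4's TPM was 0.91, against 0.52 for its counts. Kdm3a was shorter by a change of -8.79% (4462 and 4220 against 3952 and 3999 bases) and Wsb1 by one of -5.09% (1987 and 1910 against 1859 and 1845). Plin2, without a change in counts past the test, was 5.94% longer (1521 and 1479 against 1613 and 1571 bases).

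**Figure D5:**
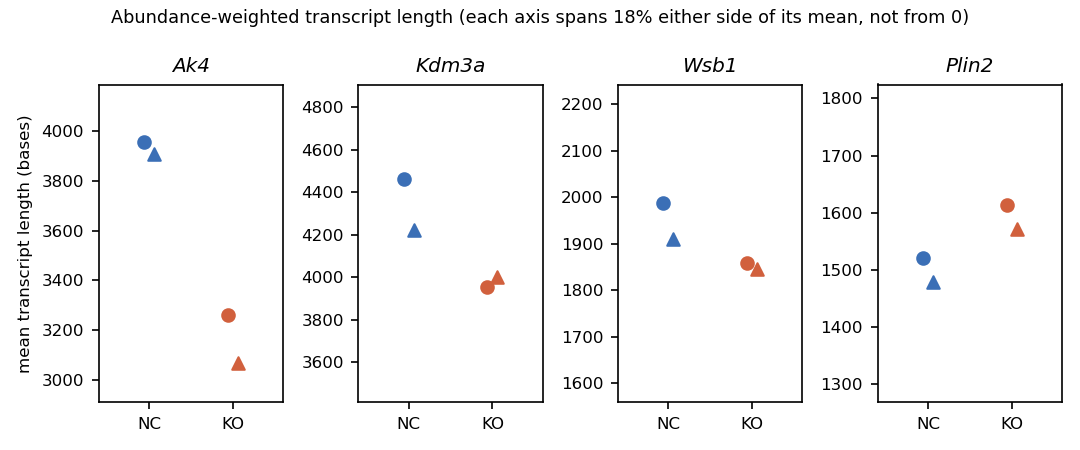
Abundance-weighted transcript length in bases (y axis, not from 0) of the 4 members with a shift, for NC and KO (circle, library 1; triangle, library 2). Ak4, Kdm3a and Wsb1 were shorter in both KO libraries, and Plin2 was longer.

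The oxygen sensing genes themselves changed in both directions. Of 10 listed, 9 were tested, and Egln3 (1.03, adjusted p = 1.57e-09), Egln1 (0.47, 0.000215) and Vhl (0.30, 0.0433) were higher in KO. Of all tested genes, 19.7% were called higher and 18.2% lower. Egln3 and Egln1 are HIF prolyl hydroxylases and known HIF targets. Egln2, the third hydroxylase, fell by 0.50 on the log2 scale (adjusted p = 0.00166). The HIF subunits did not pass the test: Hif1a differed by -0.11 (adjusted p = 0.381), Epas1 by 0.25 (0.0666), Arnt by 0.084 (0.497) and Arnt2 by -0.21 (0.196). Hif1an, the asparagine hydroxylase, differed by -0.17 (0.158), and Hif3a had 0 counts in every library.

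Beside the members' median of 0.52, the 20 tested of 21 glycolytic hypoxia genes had a median of 0.38. Of these, 14 were higher, beside 19.7% of all tested genes, and 6 were not called. Aldoc (1.49), Pfkp (1.08) and Pdk1 (0.85) had the lowest p. Among the members, Vegfa, Ddit4, Ero1l and Stc2 are also known to be induced through ATF4. Of 20 ATF4 targets, all tested, 9 were higher and 8 lower, beside 19.7% and 18.2% of all tested genes. The other 3 were not called, and the median was 0.13. Atf3 (1.64) and Ddit3 (1.28) were higher and Atf5 (-0.94) lower. The members share the libraries with these lists, and no difference between the lists was tested.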

How the data were processed

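RNA from 4 Hepa1-6 libraries (2 NC, 2 KO) was prepared with a directional kit, per the labels' protocols. The submitters' processing notes name FastQC, STAR, RSEM and DESeq2 and the builds GRCm38 and mm10. Versions, annotation release and strand setting are not given in the sources used here. The deposited files hold, per gene and library, the authors' expected counts (not normalised), TPM and the abundance-weighted transcript length in bases, per the file headers. RSEM shares reads among similar transcripts, so near-identical genes can exchange counts.

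Members were matched by symbol. The members, the gene lists and the tests were chosen with earlier results of these data known. Every member is named. Values of single libraries are given for the 12 called members with the lowest p, for members not called, lower, silent or under the filter. Of the further lists, up to 3 genes with the lowest p, the lower PPAR target Acadl and the oxygen sensing genes that did not pass were named. The other genes of these lists were counted without being named, and a gene that meets this rule is not reported here. The neighbours of Efna3, the overlapping genes and 2 of the promoters were chosen after their values were seen.

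Expected counts were rounded, filtered with filterByExpr (12510 genes left) and compared with edgeR's quasi-likelihood test (edgeR 4.0.16, R 4.3.3; TMM; group the sole term; two-sided). P-values were Benjamini-Hochberg adjusted over all genes tested, with a threshold of 0.05. Log2 fold changes are KO minus NC, with SE from the fit. With 2 libraries a group, the spread rests on all genes (prior degrees of freedom 25.8). The test was run first on simulated data. Libraries of a group differed by more than counting noise (chi-square per degree of freedom 7.09 in NC and 10.0 in KO), so they were not treated as the same library deposited again. Each was counted as a sample, as the labels have it, although the spread may be technical. Coordinates, exon overlaps and transcripts come from GENCODE M21 (GRCm38), which matched 54809 of 54838 gene IDs without the version number. Promoters come from RefSeq (GRCm38.p6), matched by symbol, with Ero1l under a synonym. Alternatives used DESeq2 1.42.0, limma-voom (limma 3.58.1), other scalings and filters, log2(TPM + 1), log2(TPM + 0.1), a replicate block, members with no exon overlap and each library left out.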

Additional observations from a re-analysis of the deposited data

How the results depend on the processing

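Depth limits the members with few counts: Car9, Loxl2 and Ppfia4 had at most 31 counts in a library. The count of members higher in KO, 22 with edgeR's quasi-likelihood test, was 18 with DESeq2, 19 without the filter and 15 in filtered log2(TPM + 1). The shares of all genes called higher were 19.7%, 11.3%, 11.6% and 9.12%, in that order. Among members with no exon overlap the count was 13, of 18 tested, in the first of these fits. There 0 were lower, since Stc1 itself overlaps a gene, Gm41192, which had 0 counts in every library. In log2(TPM + 1) without a filter the count of members higher was 0, although 21 were higher and 1 lower at an unadjusted p under 0.05. In that fit 0 of all genes were called and 4506 had an unadjusted p under 0.05; the cause was not tested. Stc1, the 1 lower member, kept its call in the count fits named here, while the 3 TPM fits called 0 lower, with 1 lower at an unadjusted p under 0.05 in each. The members' median of 0.52 was 0.64 in log2(TPM + 0.1), 0.42 in unfiltered log2(TPM + 1) and 0.48 to 0.59 with 1 library left out. All genes called, 4741, became 2868 with DESeq2, 1715 and 1512 in the filtered TPM fits and 3507 to 4488 with 1 library left out. Calls split into 19.7% higher and 18.2% lower by count, and into 9.12% and 4.07% in filtered log2(TPM + 1). Angptl4 turned from 0.084 to -0.13 in log2(TPM + 1), filtered or not, and to -0.14 in log2(TPM + 0.1). Plin2 turned from -0.027 to 0.0056 with library totals only. Of the 23 called members, 16 kept the call in all 12 alternatives on counts other than the replicate block, which ended 1 call, as given below. The labels share only a number between groups (correlation of replicate differences -0.0049), so nothing pairs the libraries. A fit with the replicate block called 21 members higher and 1 lower, with a median of 0.53 and 5006 genes in all. It ended the call of Cited2 (adjusted p = 0.0580).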

Other observations

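Efna3 sits among other ephrin genes on chromosome 3, and its neighbours included genes called higher, called lower and not called. Efna4, the ephrin-A4 gene next to it, rose by 0.60 (SE 0.18, adjusted p = 0.00858), with 80 and 132 counts in NC against 156 and 182 in KO. Slc50a1, a sugar transporter gene beyond Efna1, rose by 0.54 (adjusted p = 0.000114), and Dcst1 by 2.21 (adjusted p = 0.00188) from 4 and 5 to 17 and 28 counts. The antisense gene 4731419I09Rik, which overlaps the spans of Efna4 and Adam15, rose by 1.88 (adjusted p = 0.0107), from 8 and 2 to 23 and 17 counts. Adam15, between Efna4 and Dcst1, differed by 0.034 (adjusted p = 0.805) and Zbtb7b by -0.22 (0.0667), while Dpm3 fell by 0.41 on the log2 scale (adjusted p = 0.012). Efna1, on the other side of Efna3 from Efna4, rose by 0.26 (adjusted p = 0.0338), a call that was less steady, as given above. Of all tested genes, 19.7% were called higher and 18.2% lower. Whether the region changed together was not tested. These neighbours were looked at after the value of Efna3 was seen.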
